A study of Mus musculus with 2 samples.

Results

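The cells described are CD8 T cells with transcripts of Pdcd1, the gene of the inhibitory receptor PD-1, among immune cells sorted from mouse brain tumours. A cell barcode was taken when it held at least 2 UMIs (unique molecular identifiers, each standing for 1 captured transcript) of Cd3d, Cd3e and Cd3g together, at least 2 of Cd8a and Cd8b1 together and at least 1 of Pdcd1. Barcodes with any UMI of Cd4 or Foxp3, more than 1 of Trdc, of Klra1 and Klra6 or of Cd79a, or more than 3 of C1qa, C1qb and C1qc were left out. The rule gave 641 of the 10041 barcodes that passed the quality filters, 332 from the metformin library and 309 from the control library. The same gate without its Pdcd1 condition held a further 651 cells with 0 Pdcd1 UMIs, 309 in the metformin and 342 in the control library.

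The metformin library came from C57BL/6 mice that drank water containing metformin, and the control library from C57BL/6 mice given control water without the drug. Mice of both groups had been injected in the brain with the mouse glioma line GL261, and the region with the tumour was cut out on day 20. Sorting kept the cells richest in CD45, the common surface protein of leukocytes, and 10x Genomics 3′ chemistry was used for their transcripts. The labels give neither the number of mice behind a library nor their age, sex, metformin dose or sort gates. Each group is 1 library. No difference between the groups could therefore be set against a spread between replicates, and no p-value is given. Intervals are exact, at 95%, and cover counting error only. They treat each UMI or cell as independent and leave out the spread between animals and sorts.

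PD-1 is induced by signals through the T cell receptor and, once bound by its ligands, recruits phosphatases that dampen those signals. CD8 T cells that meet antigen for long in a tumour are known to keep PD-1 and to gain other inhibitory receptors such as LAG-3 and TIM-3, a state called exhaustion that is driven in part by the nuclear factor TOX. Such cells range from less differentiated ones with TCF-1 to terminally differentiated ones without it, and recently activated effector cells also carry PD-1.

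The rule asked for Cd3, Cd8 and Pdcd1 UMIs, so levels of these genes describe the cells and cannot test their label. Lag3 and Tox were not part of the rule. Cd8b1, a CD8 chain, stood at 1383 CPM (UMIs per 1000000 UMIs of the summed cells) in metformin and 1403 CPM in control cells, and Cd8a at 906 and 1063 CPM. B cells of the same libraries, taken as barcodes with at least 3 Cd79a UMIs and no Cd3 UMI, served to show free RNA. Their Cd8b1 stood at 2.57 CPM in the metformin and 2.38 CPM in the control library, and their Tox at 0 CPM (interval to 2.37) and 0.952 CPM. Lag3 was at 23.7 and 11.7 CPM in those B cells, against 314 and 536 CPM in the CD8 T cells with Pdcd1 UMIs. Median depth was 11464.5 UMIs in metformin and 9192 in control cells, and 5240.5 and 5702 UMIs in B cells. No barcode of these CD8 T cells occurred in both libraries, and 9 of all deposited barcodes did.

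Markers of other cell types were present at levels that differed between the libraries. The summed B cell markers came to 29.4 CPM in metformin and 59.2 CPM in control cells (6 of 7 markers detected in each), and macrophage markers to 228 and 164 CPM (9 and 8 of 10 detected, Mrc1 at 0 in both). Microglial markers were at 98.6 and 85.7 CPM, with all 8 detected in each. Red cell markers were at 8.20 and 12.2 CPM, and neutrophil markers at 3.19 and 13.7 CPM. The summed NK markers were at 386 CPM in metformin cells and 615 CPM in control cells, of which Prf1 alone was 391 CPM in control cells, and Ncr1, an NK-defining receptor, was at 0 there. The monocyte list reached 2351 and 1931 CPM, led by Ly6c2, which CD8 T cells also make. The summed markers of CD8 T cells with Pdcd1 were at 2989 and 3554 CPM. That sum includes Cd8a, Cd8b1 and Pdcd1, which the rule asked for. The rule also capped Cd79a, Trdc and the C1q genes, which lowers the B cell, gamma-delta T and macrophage sums by choice of cells. Dendritic cell markers reached 359.5 and 319 CPM, led by Cd74, with Cd209a at 0 in both libraries and Flt3 and Clec9a at 0 in control. Plasmacytoid dendritic markers reached 337 and 398 CPM, nearly all of it Bst2, an interferon-induced gene. Gamma-delta T markers reached 161 and 97.9 CPM, nearly all of it Tcrg-C2 in metformin (151 CPM). The part of these cell types in any result below was not tested.

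The Pdcd1-bearing cells were 7.21% of the filtered metformin barcodes (interval 6.48 to 7.99%) and 5.69% of the control barcodes (5.08 to 6.33%), a ratio of 1.27 (1.08 to 1.49). Of the CD8 gate they were 51.8% in metformin and 47.5% in control, a ratio of 1.09 (0.932 to 1.28). Metformin cells of the gate were deeper. When each gate cell was thinned to 4222 UMIs and Pdcd1 was read again, 224 of 615 metformin cells (36.4%) and 231 of 586 control cells (39.4%) kept a Pdcd1 UMI, a ratio of 0.924 (0.765 to 1.12). At equal depth the order of the shares within the gate was thus turned. Neither interval left out 1, though both are too wide for shares of this size.

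The rule asked for 1 UMI of Pdcd1 (chr1:94038305-94052553, minus strand, GENCODE M21 on GRCm38, as for the genes below), so its values are a description. Metformin cells held 1490 Pdcd1 UMIs (339 CPM) and control cells 1423 (434 CPM), with a median of 2 and 3 UMIs a cell. A single UMI put 96 metformin and 84 control cells just inside the rule, at median depths of 9464 and 8532 UMIs, and the 309 metformin and 342 control cells just outside had medians of 8710 and 7808 UMIs. The metformin cell richest in Pdcd1 had 61 UMIs and the control one 26. Only 7 metformin and 9 control barcodes met every other condition but held 1 Cd4 UMI.

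Genes were then compared between metformin and control in these cells. A gene was eligible with at least 50 CPM, 20 UMIs and a UMI in at least 10% of cells in 1 library. It was called by size, not by a test, when the ratio of CPM was at least 1.5 either way, its interval left out 1, and the direction held at a lesser minimum without the richest cell of each library. Of 2471 eligible genes, 45 were called higher (1.82%) and 34 lower (1.38%) in metformin, and the median log2 ratio was 0.02. Counts called in the lists below are to be read against these shares, from which a single call in a short list is not set apart. Of the 45 higher genes, 16 were on the cell cycle list. The lower genes included Tox, Lag3, Tnfrsf9, Prf1, Ccl3 and the receptor constant gene Trbc1. A gene that reached 50 CPM in 1 library only lies on that library's side of 1 by the filter itself. Among the lower genes this holds for Tox, Maf, Cd160, Ubash3b, Eea1, Ms4a4c and Cxcl10.

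**Figure D1:**
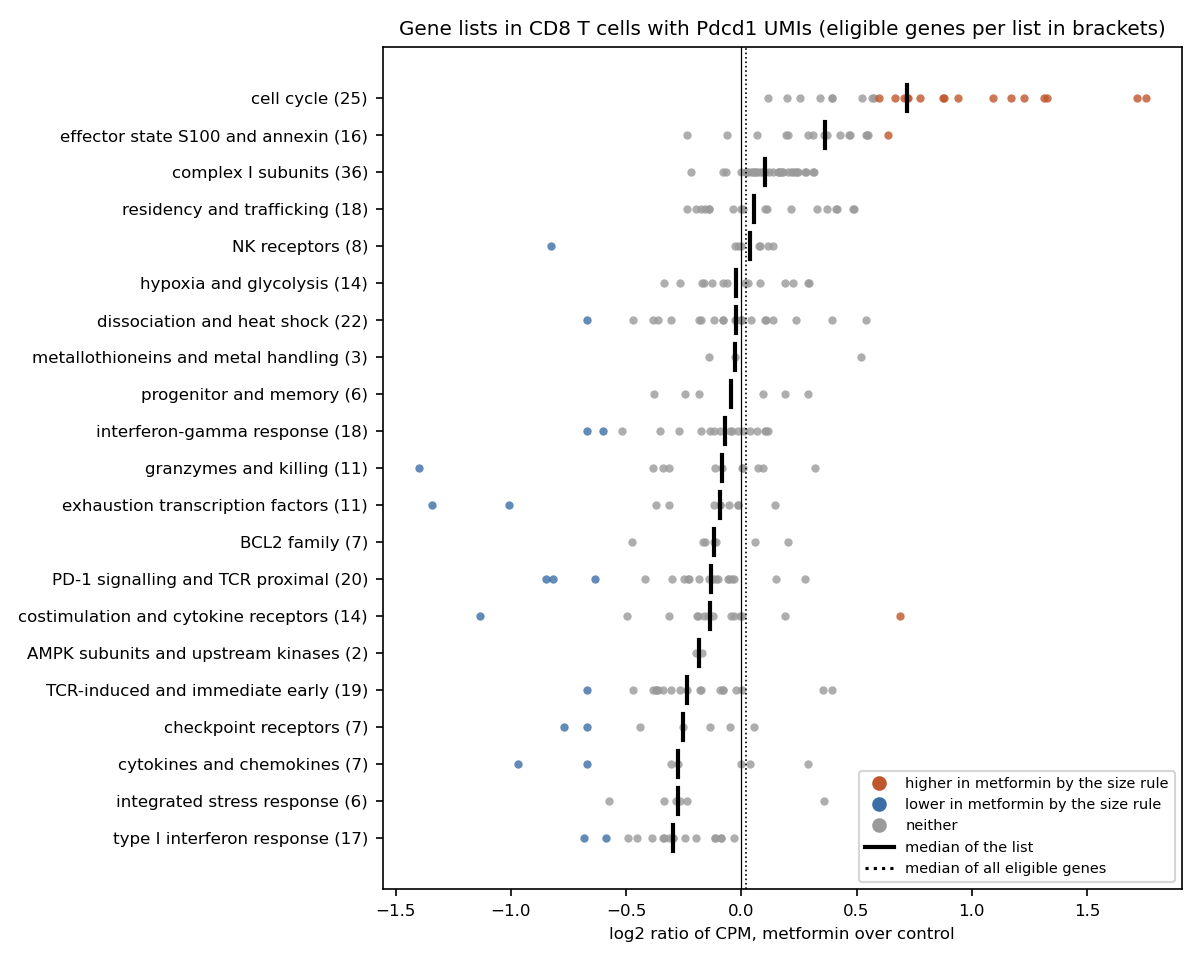
Log2 ratios of CPM, metformin over control, for the eligible genes of 21 lists (1 point a gene, coloured by the size rule, with a black bar at each list's median and a dotted line at the median of all eligible genes). The cell cycle list lies farthest right, with a median of 0.72, and the type I interferon list farthest left, with a median of -0.30.

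Cell cycle genes were higher in metformin cells as a list: 16 of 25 eligible genes were called higher, against 1.82% of all eligible genes, and none lower. All 25 ratios were above 1, and the median log2 ratio was 0.72 against 0.02 over all eligible genes. The list held 46 genes. Some, such as Cenpf and Nusap1, reached 50 CPM only in metformin cells, so the filter itself put their ratios above 1. The count of ratios above 1 and the median are thus set in part by the filter. Ube2c (chr2:164769898-164778822, plus strand), an ubiquitin-conjugating enzyme of mitotic exit, had 784 UMIs in metformin cells (179 CPM) and 173 in control cells (52.8 CPM), a ratio of 3.38 (2.86 to 4.01). A Ube2c UMI was present in 22.3% of metformin and 12.6% of control cells, and in 2.27% and 2.37% of B cells. In B cells Ube2c was at 41.7 CPM in the metformin and 22.1 CPM in the control library, on 5 and 13 cells with a UMI, and over all filtered barcodes at 49.9 and 36.7 CPM. The part of a library-wide difference in these values was not tested. Cenpf, a kinetochore protein, was at 80.6 and 24.4 CPM (ratio 3.30), and Nusap1, a spindle protein, at 74.5 and 29.6 CPM (2.52). Birc5, the chromosome passenger survivin, was at 136 and 60.4 CPM (2.26).

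The cyclins were called higher as well. Ccna2 was at 51 CPM in metformin and 20.4 CPM in control cells (ratio 2.49), Ccnb2 at 85.2 and 36.3 CPM (2.35), and Cdk1, their kinase partner, at 68.5 and 32.0 CPM (2.14). Cks2, a small subunit of that kinase, was at 119 and 51 CPM (2.33), and Cdca3, a trigger of mitotic entry, at 51.2 and 22.0 CPM (2.33). Hmgb2, an abundant chromatin protein, was at 1517 and 827 CPM (1.84, 1.76 to 1.92). The tubulins Tuba1c (2.01) and Tubb4b (1.84) and the histone genes Hist1h2ap (2.10) and Hist1h2ae (1.94) were called as well, the tubulins and histones having near-identical copies between which reads may be split. Of the genes of DNA replication, Mcm5 (1.65), Mcm7 (1.59) and Rrm2 (1.93) were called, while Pcna (1.20) and Mcm6 (1.09), picked after their values were seen, were not.

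By a gate of at least 2 UMIs of Mki67, Top2a, Birc5 and Ube2c together, 104 of 332 metformin cells (31.3%) and 74 of 309 control cells (23.9%) were cycling. The ratio was 1.31 (0.962 to 1.79), an interval too wide for shares of this size. Thinned to equal depth the shares were 16.2% and 12.6% (ratio 1.29, 0.831 to 2.02), so the shares differed less than the summed transcripts. Among the 228 metformin and 235 control cells outside that gate, 15 genes were called higher and 34 lower, and 1 of the 15 named higher genes, Tcrg-C2, was still called. The gate removes cells by genes of the cell cycle list, so the loss of cell cycle calls is in part brought about by the removal. Of that list 6 genes were eligible outside the gate, against 25 in all cells. In CD8 gate cells without Pdcd1 UMIs, Ube2c was at 43.7 CPM in metformin and 29.3 CPM in control (ratio 1.49, 1.12 to 1.99), and Cenpf at 13 and 18.7 CPM (0.693, 0.441 to 1.08).

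Promoters of 3 of these genes are shown because cell cycle promoters are known for a pair of short elements, the CHR box TTTGAA and the CCAAT box, by which mitotic genes are repressed in resting cells and switched on in dividing ones. The 300 bases run from 250 before to 50 after the start site (RefSeq, GRCm38.p6), for Ube2c at chr2:164769679-164769978 on the plus strand, for Ccnb2 at chr9:70421505-70421804 and for Cdk1 at chr10:69352863-69353162 on the minus strand. Capitals mark TTTGAA and CCAAT read on either strand, and the capital stretch of 8 letters in Ube2c is CCAAT overlapping its own reverse complement.
Ube2c: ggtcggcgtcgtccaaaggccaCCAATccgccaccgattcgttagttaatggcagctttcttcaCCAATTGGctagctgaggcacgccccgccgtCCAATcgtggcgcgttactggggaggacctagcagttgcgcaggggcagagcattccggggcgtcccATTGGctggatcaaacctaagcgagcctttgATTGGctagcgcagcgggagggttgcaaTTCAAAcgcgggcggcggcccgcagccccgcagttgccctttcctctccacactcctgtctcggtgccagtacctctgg
Ccnb2: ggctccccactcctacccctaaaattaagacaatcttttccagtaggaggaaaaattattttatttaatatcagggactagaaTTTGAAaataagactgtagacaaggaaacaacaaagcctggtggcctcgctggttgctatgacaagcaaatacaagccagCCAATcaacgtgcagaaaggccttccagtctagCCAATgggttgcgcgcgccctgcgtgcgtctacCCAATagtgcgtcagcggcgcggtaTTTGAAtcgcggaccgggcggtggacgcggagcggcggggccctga
Cdk1: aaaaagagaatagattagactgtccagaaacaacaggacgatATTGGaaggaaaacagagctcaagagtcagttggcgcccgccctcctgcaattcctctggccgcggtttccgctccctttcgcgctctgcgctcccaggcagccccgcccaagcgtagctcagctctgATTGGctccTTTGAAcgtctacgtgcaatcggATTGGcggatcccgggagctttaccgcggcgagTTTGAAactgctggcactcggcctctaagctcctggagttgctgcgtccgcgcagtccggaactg
Of the 16 cell cycle genes called higher, 14 had a promoter in the table. TTTGAA occurred in 8 of the 14, against 18.1% of all 27025 promoters, CCAAT in 12 of the 14 against 37.9%, and both in 8 of the 14 against 7.12%. The 14 genes were drawn from a list of cell cycle genes, whose promoters are known for these elements. Genes of that list that were not called were not compared, so the shares show nothing particular to metformin. A match of letters is a description and not a measured binding site.

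Of the checkpoint receptors, the inhibitory receptors that accompany PD-1, 2 of 7 eligible genes were lower in metformin, against 1.38% of all eligible genes. None was higher, and the median log2 ratio was -0.25. Lag3 (chr6:124904361-124911705, minus strand), which binds MHC class II and restrains T cells, had 1379 UMIs in metformin cells (314 CPM) and 1756 in control cells (536 CPM), a ratio of 0.586 (0.546 to 0.629). Per cell, Lag3 had a median of 1.76 UMIs per 10000 in metformin and 2.84 in control cells, with upper quartiles of 4.98 and 6.87 and maxima of 64.7 and 52.3. The ranges overlapped throughout. With equal weight for each cell the ratio was 0.703, which misses the 1.5-fold minimum. A Lag3 UMI was found in 74.7% of metformin and 76.7% of control cells, against 4.55% and 4.56% of B cells, and in 53.5% and 62.6% of cells thinned to 4222 UMIs. Cd160, a receptor for HVEM, was the other gene called (44.9 and 71.4 CPM, ratio 0.63), and it reached 50 CPM only in control cells.

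Havcr2, the gene of TIM-3, was at 111 CPM in metformin and 121 CPM in control cells (ratio 0.911, 0.797 to 1.04), and Ctla4 at 107 and 111 CPM (0.97). Entpd1, the ectoenzyme CD39, had a ratio of 0.74 without passing the rule. Among cells outside the cycling gate the median of this list was 0.00, and Lag3 had a ratio of 0.774. In CD8 gate cells without Pdcd1 UMIs, Lag3 was at 89.1 CPM in metformin and 101 CPM in control (ratio 0.878).

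Of 11 eligible exhaustion transcription factors, 2 were lower, against 1.38% of all eligible genes, none was higher, and the median log2 ratio was -0.09. Tox (chr4:6686353-6991557, minus strand) had 204 UMIs in metformin cells (46.5 CPM) and 386 in control cells (118 CPM), a ratio of 0.394 (0.331 to 0.469). Most cells of either library had no Tox UMI, 31.9% of metformin and 38.8% of control cells having at least 1 (against 0.730% of control B cells; 18.0% and 29.9% of cells after thinning), and the 90th percentile per cell was 2.03 per 10000 in metformin and 4.31 in control cells. Maf, a factor that promotes inhibitory receptors and IL-10, was at 28 and 56.5 CPM (ratio 0.50, 0.39 to 0.63). Tox and Maf, the genes called, reached 50 CPM only in control cells, so the filter itself put their ratios below 1. Batf (0.80) and Nr4a2 (0.77), both induced by receptor signals, were below 1 without passing the rule, and Id2 (0.99) and Rbpj (0.96) lay near 1.

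**Figure D2:**
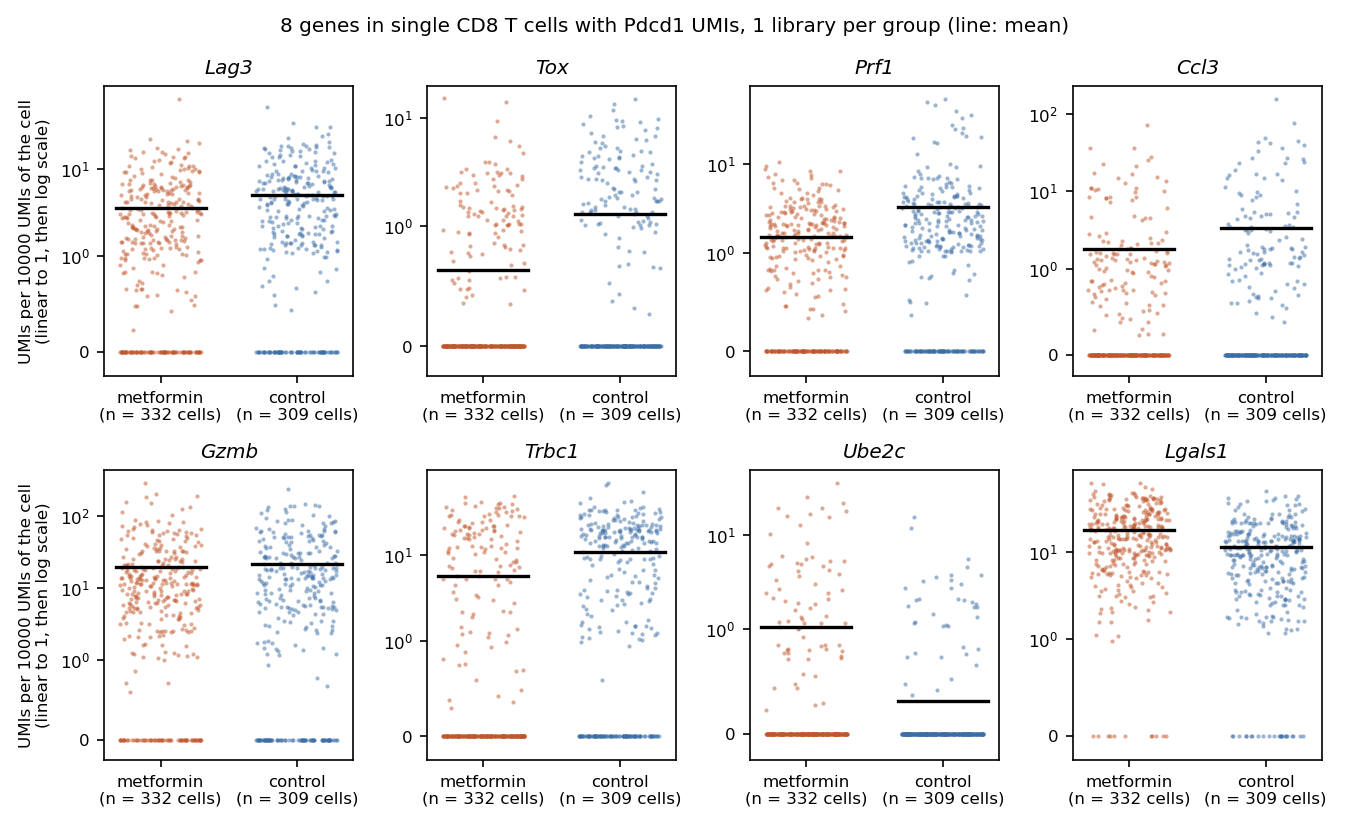
UMIs of 8 genes per 10000 UMIs of the cell, 1 point a cell, in 332 metformin (left) and 309 control (right) CD8 T cells with Pdcd1 UMIs, on an axis linear to 1 and logarithmic above, with black lines at the means. The highest control cells of Prf1 reach 54.4, against 10.5 in metformin cells, and the highest metformin cells of Ube2c reach 36.0, against 15.6 in control cells.

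Of 11 eligible genes of granzymes and killing, 1 was lower and none higher (median log2 ratio -0.08), against 1.38% lower over all eligible genes. That gene was Prf1, the pore-forming perforin (chr10:61297833-61304680, plus strand), with 651 UMIs in metformin cells (148 CPM) and 1281 in control cells (391 CPM), a ratio of 0.379 (0.345 to 0.417). The share of cells with a Prf1 UMI was 64.8% in metformin and 68.9% in control, against 0.455% and 1.82% of B cells, and after thinning 42.8% in metformin and 52.7% in control. The median per cell was 0.973 per 10000 in metformin and 1.39 in control cells, the 90th percentiles were 3.70 and 6.09, and the groups overlapped except at the top. Without Pdcd1 UMIs, CD8 gate cells had Prf1 at 101 CPM in metformin and 92.3 CPM in control (interval of the ratio 0.925 to 1.30).

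No granzyme gene was called. Gzmb was at 2367 CPM in metformin and 2505 CPM in control cells (ratio 0.945, 0.918 to 0.973), with per-cell medians of 8.64 and 9.24 per 10000. Gzma was at 3976 and 5031 CPM (0.79). Nkg7, a granule membrane protein, was at 2425 and 3018 CPM (0.80), and Ctsw, a protease of killer cells, at 789 and 631 CPM. Ifng, the gene of the effector cytokine IFN-γ, was at 302 and 303 CPM (0.998, 0.919 to 1.09).

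Of 7 eligible cytokine and chemokine genes, 2 were lower, against 1.38% of all eligible genes, and none higher, with a median log2 ratio of -0.27. Outside the cycling gate the median was 0.04, with 1 gene higher and 2 lower. Ccl3 (chr11:83647844-83649355, minus strand), a chemokine released by activated T cells, had 753 UMIs in metformin cells (171 CPM) and 1101 in control cells (336 CPM), a ratio of 0.510 (0.465 to 0.560). Its UMIs were found in 39.5% of metformin and 38.2% of control cells, and in 10.9% and 11.7% of B cells. After thinning the order of the shares was turned, to 22.3% of metformin and 26.2% of control cells. Cxcl10, an interferon-induced chemokine, was at 32.8 and 52.2 CPM (0.63). Ccl4, the neighbour and relative of Ccl3, was at 868 and 1050 CPM (0.83) and Ccl5 at 7789 and 9629 CPM (0.81), neither called.

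Among costimulatory and cytokine receptors, 1 of 14 eligible genes was higher and 1 lower, against 1.82% and 1.38% of all eligible genes. The median log2 ratio was -0.13, and 0.0032 outside the cycling gate. Tnfrsf9 (chr4:150914562-150946102, plus strand), the gene of 4-1BB, a costimulator induced on activated T cells, was at 62.6 CPM in metformin and 138 CPM in control cells (ratio 0.455, 0.390 to 0.530). It was also lower in CD8 gate cells without Pdcd1 UMIs, at 10.1 and 27.2 CPM (0.371, 0.232 to 0.579). Cd226, the activating receptor DNAM-1, was at 143 and 88.8 CPM (1.62, 1.40 to 1.86).

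Of 20 eligible genes of PD-1 signalling and the proximal T cell receptor pathway, 3 were lower, against 1.38% of all eligible genes. None was higher, and the median log2 ratio was -0.13. Cd6, a co-receptor that tunes receptor signals, was at 74.0 CPM in metformin and 131 CPM in control cells (ratio 0.567), Ubash3b, a phosphatase of ZAP-70, at 40.3 and 72.6 CPM (0.555), and Sh2d2a, an adaptor of LCK, at 213 and 332 CPM (0.643). Sla, an adaptor that limits receptor levels, was at 105 and 141 CPM (0.75), and Zap70, the kinase of the receptor, at 135 and 158 CPM (0.85), neither called. The other genes named by the lower end of the ranking were Fcer1g, a signalling chain (68.8 and 122 CPM, 0.563), Eea1, an endosome tether (32.6 and 60.1 CPM, 0.542), and Ms4a4c (32.6 and 59.2 CPM, 0.550). Ubash3b, Eea1 and Ms4a4c reached 50 CPM only in control cells. When each cell counted equally, the ratio of Fcer1g was 0.855 and that of Sh2d2a 0.711, and with Lag3 these were the 3 of the 15 named lower genes that lost their call. Of all 34 lower calls 19 were kept in that setting, and of the 45 higher calls 41.

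The type I interferon list leaned to the lower side. All 17 eligible genes of 27 listed had ratios below 1, 2 were called lower, against 1.38% of all eligible genes, and the median log2 ratio was -0.30. A gene that reached 50 CPM only in control cells, such as Slfn5, lies below 1 by the filter itself. Ifit3, which restrains viral RNA and has a close copy in the genome, was at 111 CPM in metformin and 166 CPM in control cells (0.67, 0.59 to 0.75), Slfn5 at 32.3 and 51.9 CPM (0.62), Xaf1 at 95.2 and 134 CPM (0.71) and Ifi27l2a at 3309 and 4057 CPM (0.82). Ifit3 UMIs were in 37.0% of metformin and 46.9% of control cells, and in 8.64% and 19.7% of B cells, the same order in both kinds of cell, and the part of a library-wide difference was not tested. With a gate of at least 5 UMIs of Ifit1, Ifit3, Isg15, Mx1 and Rsad2, 35.2% of metformin and 41.4% of control cells were in it (ratio 0.851, 0.656 to 1.10), and 16.5% and 24.1% after thinning (0.684, 0.471 to 0.988).

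Of 18 eligible IFN-γ response genes, 2 were lower (Irf8 at 84.9 and 129 CPM, ratio 0.66, and Cxcl10 as above) and none higher, with a median of -0.07. Of 19 eligible immediate early genes, which report recent receptor signals and also handling, 1 was lower and none higher (median -0.24). That gene was Dusp1, a phosphatase of MAP kinases, at 56.0 and 89.1 CPM (0.63). Over all eligible genes 1.38% were called lower. Jun was at 214 and 279 CPM (0.77), Fos at 77.0 and 106 CPM (0.72), and Nfkbia, an inhibitor of NF-κB, at 207 and 158 CPM (1.31).

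Metformin is known to inhibit mitochondrial complex I and, through a fall in cell energy, to activate the kinase AMPK. No complex I subunit gene was called: of 36 eligible, 32 had ratios above 1 and the median log2 ratio was 0.10. Ndufa11 was at 184 CPM in metformin and 148 CPM in control cells (1.24, 1.11 to 1.39), and Ndufa1 at 273 and 225 CPM (1.22, 1.11 to 1.34). Only 2 of 15 listed AMPK-related genes were eligible, Cab39 (0.87) and Txnip (0.89). None of 14 eligible hypoxia and glycolysis genes was called (median -0.02, range of log2 ratios -0.33 to 0.29), with the glycolytic enzyme Eno1 at 311 and 254 CPM (1.23) and Bnip3l, a mitophagy receptor, at 99.96 and 120 CPM (0.83). None of 6 integrated stress response genes was called either (median -0.28), Cebpb being lowest at 62.8 and 93.7 CPM (0.67).

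Genes of the motile, antigen-experienced state were shifted upward, with 14 of 16 ratios above 1 and a median log2 ratio of 0.36, but only 1 passed the rule. Lgals1, the gene of galectin-1, was at 2147 CPM in metformin and 1380 CPM in control cells (ratio 1.56), with per-cell medians of 15.1 and 9.39 per 10000. S100a4, S100a10 and Crip1 each had a ratio of 1.46. No residency or trafficking gene was called: Cxcr6, a receptor of tissue T cells, was at 643 and 644 CPM (0.999, 0.944 to 1.06), Itgb1, an integrin chain, had a ratio of 1.33 and Ly6c2 of 1.40. Of 8 NK receptor genes, Fcer1g alone was called, and Klrk1, the gene of NKG2D, was at 345 and 351 CPM (0.982, 0.909 to 1.06). No gene of the BCL2 family was called, Bcl2 being at 178 and 247 CPM (0.719), and of 22 dissociation and heat shock genes only Dusp1 was. Of 3 metallothionein and metal handling genes none was called, and of 6 progenitor and memory genes none (median -0.04).

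Tcf7, the gene of TCF-1, missed the minimum of 50 CPM, at 31.7 CPM in metformin and 43.3 CPM in control cells (139 and 142 UMIs). Tcf7 UMIs were in 1.82% of metformin and 1.28% of control B cells, and Havcr2 UMIs in 2.73% and 1.64%. Cells with Tcf7 and no Havcr2 UMI made up 13.9% of metformin and 17.8% of control cells (ratio 0.778, 0.515 to 1.17). Cells with Havcr2 and no Tcf7 UMI made up 56.3% and 45.3% (1.24, 0.993 to 1.56). Thinned to equal depth these shares were 10.1% and 12.2% for Tcf7 alone and 31.5% and 28.2% for Havcr2 alone (1.12, 0.827 to 1.51). Each of these intervals of the ratio held 1.

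Some called genes differed in cells that should not make them, or across the whole library. Gh, growth hormone, had 2 UMIs in metformin and 198 in control cells, and was in 0.455% and 25.4% of B cells and 0.738% and 24.9% of all filtered barcodes. Ide, the insulin-degrading protease, was at 37.6 CPM in metformin and 95.5 CPM in control cells, against 16.7 and 23.6 CPM in B cells and 16.1 and 28.5 CPM in barcodes with at least 10 C1q UMIs and no Cd3e. Apoe, a macrophage product named here after its values were seen, was called higher (93.6 and 52.8 CPM) and was at 15407 and 9684 CPM in those C1q barcodes. The part of free RNA in these 3 differences was not tested.

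Trbc1 and Trbc2 are the alternative constant regions of the T cell receptor β chain, and a rearranged chain carries 1 of them. Trbc1 (chr6:41538218-41539881, plus strand) was at 454 CPM in metformin and 1092 CPM in control cells (ratio 0.416, 0.394 to 0.440), and its UMIs were in 38.6% and 68.0% of cells, against 11 of 220 and 26 of 548 B cells. Trbc2 was at 1555 and 1612 CPM, with UMIs in 99.1% and 98.4% of cells and in 8.64% and 11.1% of B cells, so most cells with Trbc1 UMIs held both. In CD8 gate cells without Pdcd1 UMIs, Trbc1 was in 52.4% of metformin and 53.8% of control cells. The γ chain constant gene Tcrg-C2, transcribed in many αβ T cells as well, was at 151 and 69.6 CPM in the Pdcd1-bearing cells (2.16, 1.86 to 2.53) and at 64.9 and 26.5 CPM in the others of the gate (2.45, 1.86 to 3.25).

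These values led to the receptor variable segments, which were examined after the constant genes had been seen. Cells that descend from 1 T cell share their rearranged V segments. A 3′ library seldom reads that end of the transcript, and a Trav UMI was found in 104 metformin cells (31.3%) and 87 control cells (28.2%), against 1 of 220 and 2 of 548 B cells. Trav3-3 was seen in 46 metformin and 13 control cells and was the commonest α segment in metformin. Trav5-4 was seen in 2 metformin and 42 control cells and was the commonest in control. Of the 42 control cells with Trav5-4, 15 also had Trav6-7-dv9, 10 had Trbv1 and 7 had Trav3-3. Of 19 control cells with Trav6-7-dv9 15 were among the 42, and of 12 with Trbv1 10 were. Whether segments seen in the same cell come from rearranged chains, or such cells from 1 T cell, was not tested. In CD8 gate cells without Pdcd1 UMIs, Trav3-3 was seen in 16 of 309 metformin and 6 of 342 control cells. Trav5-4 was seen there in 8 of the 342 control cells.

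The 3 α chain segments are shown to let the reads be told apart, as the last 90 bases of each annotated segment (GENCODE M21, GRCm38, plus strand), with capitals on the codon of the conserved cysteine before the junction. Trav3-3 lies at chr14:53665929-53666506, Trav5-4 at chr14:53704007-53704514 and Trav6-7-dv9 at chr14:53709902-53710419.
Trav3-3: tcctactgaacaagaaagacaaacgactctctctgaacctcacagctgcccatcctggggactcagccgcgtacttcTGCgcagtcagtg
Trav5-4: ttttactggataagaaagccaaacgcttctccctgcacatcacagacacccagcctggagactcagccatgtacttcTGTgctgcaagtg
Trav6-7-dv9: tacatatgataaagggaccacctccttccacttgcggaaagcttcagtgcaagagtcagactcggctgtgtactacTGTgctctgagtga
Each has a near-copy in the mouse genome, Trav3d-3 (96.0% identical), Trav5d-4 (98.3%) and Trav6d-7 (92.9%), so which copy a read came from is uncertain.

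The 42 control cells with Trav5-4 UMIs stood apart from the other 267 control cells in the genes named above. Prf1 was at 1208 CPM in cells with Trav5-4 and 241 CPM in the others (ratio 5.01), and Ccl3 at 1060 and 203 CPM (5.22). Tox was at 272 and 89.5 CPM (3.04), Lag3 at 1100 and 433 CPM (2.54), Tnfrsf9 at 311 and 106 CPM (2.94) and Havcr2 at 246 and 98.6 CPM (2.50). Ifng was at 613 and 246 CPM (2.49). Of these genes, Prf1, Ccl3, Tox, Lag3 and Tnfrsf9 were among those called lower in metformin. The part of the 42 cells in those differences was not tested.

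The difference did not extend to all effector genes. Gzmb was at 1808 CPM in the control cells with Trav5-4 and 2633 CPM in the others (0.687), Tcf7 at 11.8 and 49.1 CPM (0.241), and Tcrg-C2 at 11.8 and 80.1 CPM (0.148). Trbc1 was found in 97.6% of them and 63.3% of the others. Median depth was 10861.5 UMIs with Trav5-4 and 8967 UMIs without. The cells were grouped by a receptor transcript that deeper cells show more often, and cells of 1 library are not replicates.

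The 46 metformin cells with Trav3-3 UMIs had a pattern that was different in part. Trbc1 was at 12.1 CPM in them and 545 CPM in the other 286 metformin cells, with a UMI in 4 of the 46. Lgals1 was at 2928 and 1987 CPM (1.47, 1.41 to 1.55) and Ube2c at 275 and 159 CPM (1.73, 1.47 to 2.03). Lag3 was lower, at 221 and 333 CPM (0.664), and Maf was at 4.02 and 32.9 CPM (0.122, 0.0248 to 0.366, on 3 UMIs). The 13 control cells with Trav3-3, of which 7 also had Trav5-4, differed from these. Trbc1 was at 1887 CPM in them and in 92.3% of cells, and Lag3 was at 221 CPM in the metformin and 1201 CPM in the control cells with Trav3-3. Prf1 was at 179.6 and 1065 CPM in the same cells, Tox at 44.2 and 308 CPM, and Ccl3 at 141 and 864 CPM.

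Without the 12 metformin and 48 control cells that held a UMI of Trav5-4, Trav6-7-dv9 or Trbv1, 320 and 261 cells were left, and 68 genes were called higher and 24 lower. These cells were picked after the values above were seen, so smaller differences in Prf1, Ccl3 and Lag3 follow in part from the choice. Only 28.2% of control cells had any Trav UMI, so cells with these segments but no captured UMI of them may have stayed in. All 15 named higher genes and 9 of the 15 named lower genes were still called. Tox kept its call, at 45.5 CPM in metformin and 82.1 CPM in control cells (ratio 0.554, 0.455 to 0.675), as did Tnfrsf9 (0.605), Trbc1 (0.504), Maf (0.505) and Cd6 (0.649). Prf1 (0.687), Lag3 (0.790), Ccl3 (0.881), Sh2d2a (0.768), Ubash3b (0.827) and Eea1 (0.871) no longer passed the 1.5-fold minimum. Havcr2 had a ratio of 1.23 (1.05 to 1.44) and Ccl4 of 1.21 (1.15 to 1.28) in these cells. The cell cycle genes had larger ratios, Ube2c 5.29 (4.26 to 6.62), 23 of 27 eligible genes of that list being called higher. Ube2c was at 135 CPM in the 48 control cells left out and 34.9 CPM in the other control cells. In the 12 metformin cells left out it was at 6.74 CPM, on 1 UMI, against 185 CPM in the others. The larger Ube2c ratio thus follows in part from which cells were left out.

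**Figure D3:**
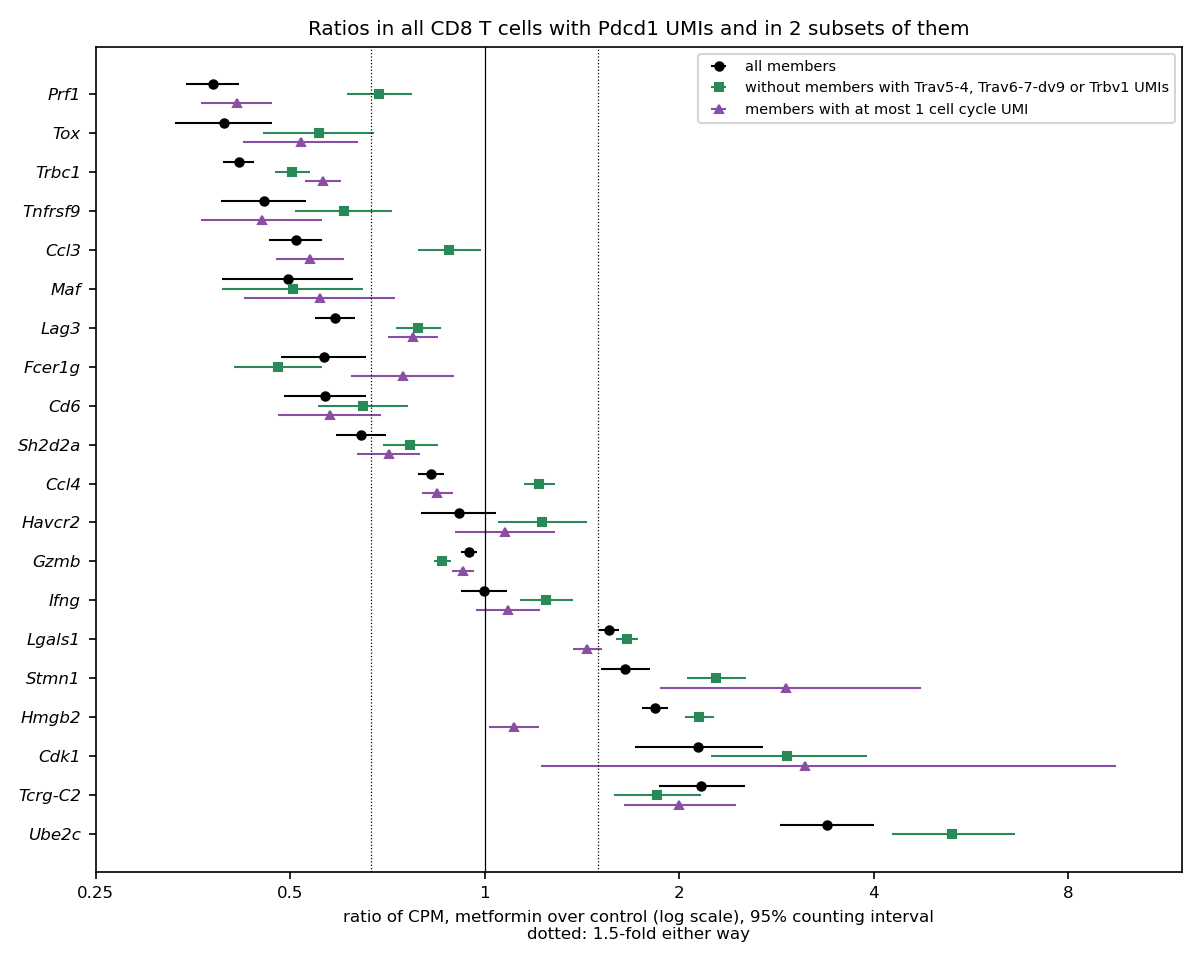
Ratios of CPM, metformin over control, with 95% counting intervals on a log axis, for 20 genes in all CD8 T cells with Pdcd1 UMIs (black circles), without cells holding Trav5-4, Trav6-7-dv9 or Trbv1 UMIs (green squares) and in cells with at most 1 UMI of the cell cycle gate (purple triangles, not drawn for Ube2c, which is in that gate). Prf1 stands at 0.379 in all cells and 0.687 without the V-marked cells, and Ccl3 at 0.510 and 0.881, while Trbc1 stands at 0.504 and Maf at 0.505 without them.

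Cells with Pdcd1 UMIs were next set against CD8 gate cells without them, in each library on its own. Pdcd1 chose the cells and is no finding. Of 2365 genes eligible in both libraries, 125 were called higher (5.29%) and 45 lower (1.90%) in both, and none was called in opposite directions. The median log2 ratio was 0.17 in the metformin and 0.13 in the control library, so ratios are to be read against that shift. Counts called in the lists are to be read against the shares of 5.29% and 1.90%. Median depth was 11464.5 UMIs with and 8710 without Pdcd1 UMIs in metformin, and 9192 and 7808 in control.

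**Figure D4:**
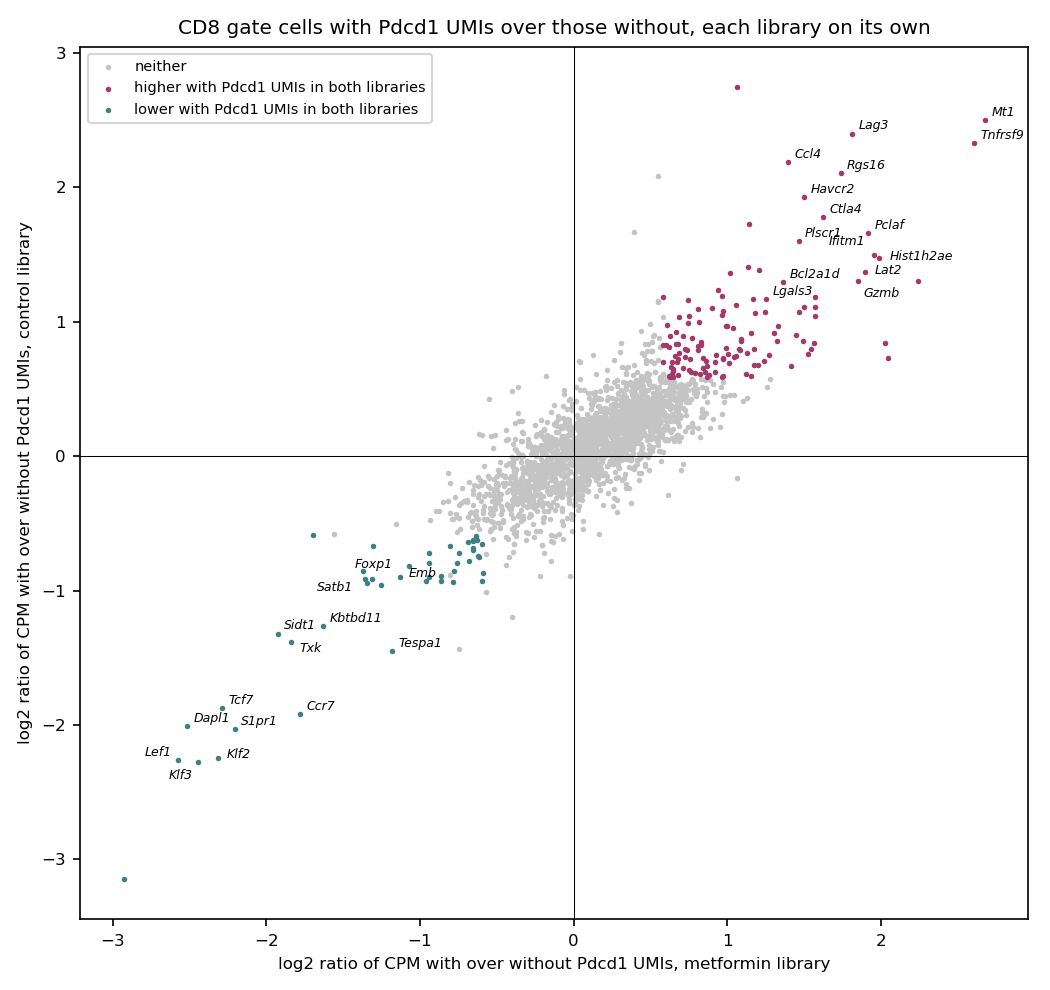
Log2 ratio of CPM in CD8 gate cells with over those without Pdcd1 UMIs, the metformin library on the x axis and the control library on the y axis, 1 point for each of 2365 genes, with the genes the text names by the ranking labelled. Mt1, Tnfrsf9 and Lag3 lie at the upper right and Lef1 and Klf3 at the lower left.

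Inhibitory and costimulatory receptors were among the genes most enriched in cells with Pdcd1 UMIs. Lag3 was at 314 CPM with and 89.1 CPM without Pdcd1 UMIs in the metformin library (ratio 3.52), and at 536 and 101 CPM in the control library (5.28). Tnfrsf9 had ratios of 6.20 in metformin and 5.05 in control, Ctla4 of 3.10 and 3.44, and Havcr2 of 2.84 and 3.82. Of 6 eligible checkpoint receptors 3 were called higher in both libraries and none lower. Tox was not eligible in metformin, at 46.5 CPM with and 33.6 CPM without Pdcd1 UMIs, and so could not be called in both. Its ratios were 1.38 (1.08 to 1.79) in metformin and 2.71 (2.21 to 3.35) in control.

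Mt1, a metal-binding metallothionein, had the highest ranked ratio, with 156 CPM with and 24.2 CPM without Pdcd1 UMIs in metformin (6.44, 5.01 to 8.41) and 109 and 19.1 CPM in control (5.69, 4.26 to 7.72). Rgs16, a brake on chemokine receptor signals, had ratios of 3.34 in metformin and 4.31 in control, Ifitm1, an interferon-induced membrane protein with close relatives, of 3.89 and 2.82, and Plscr1, a lipid scramblase, of 2.78 and 3.05. Lat2, an adaptor, had ratios of 3.76 and 2.60, and Bcl2a1d, a survival gene with near-identical copies, of 2.58 and 2.46. Lgals3, the gene of galectin-3, had 2.39 and 2.25.

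Effector genes were also higher. Gzmb was at 2367 CPM with and 657 CPM without Pdcd1 UMIs in metformin (3.60) and at 2505 and 1014 CPM in control (2.47). Ccl4 had ratios of 2.63 in metformin and 4.56 in control, and Ccl3 of 2.09 and 6.74. Prf1 had a ratio of 1.46 (1.27 to 1.69) in metformin and 4.24 (3.71 to 4.86) in control, and so was not called in both. Of the killing genes 4 of 11, and of the cytokine genes 3 of 6, were called higher in both libraries, none lower.

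Cell cycle genes were called higher in 10 of 14 eligible cases, and Pclaf, a PCNA-binding protein named by the ranking, had ratios of 3.79 in metformin and 3.16 in control. Outside the cycling gate Pclaf had a ratio of 0.464 in control, on 6 and 14 UMIs, and Hist1h2ae of 0.913. Of 13 eligible hypoxia and glycolysis genes 8 were higher, among them Gapdh (1.99 in metformin, 1.75 in control), Pgk1 (2.19 and 1.71), Tpi1 (2.12 and 1.74) and Pkm (1.89 and 1.63). Of 16 genes of the motile, antigen-experienced state 7 were higher, among them Lgals1 (2.81 and 1.81) and Capg (2.77 and 2.10). No eligible gene of the immediate early, type I interferon, complex I, AMPK, stress response or dissociation lists was called in both libraries. The interferon list had 18 eligible genes there, and Ifitm1 is not on it.

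Of 12 eligible progenitor and memory genes 10 were called lower, among the 45 lower genes in all. The ratio of the quiescence factor Klf2 was 0.20 in metformin and 0.21 in control, that of Klf3 0.18 and 0.21, and that of Lef1 0.17 and 0.21. S1pr1, the receptor for exit from tissue, had 0.22 and 0.24, Ccr7 0.29 and 0.26, and Tcf7 0.20 and 0.27. Satb1 (0.39 and 0.52), Foxp1 (0.40 and 0.53), Emb (0.46 and 0.54), Tespa1 (0.44 and 0.37), Txk (0.28 and 0.38), Sidt1 (0.26 and 0.40), Kbtbd11 (0.32 and 0.41) and Dapl1 (0.17 and 0.25) were also named by the ranking.

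The contrast was smaller when naive-type cells left the comparison group. With cells holding more than 1 UMI of a short set of naive-cell genes, Lef1 and Ccr7 among them, left out of the cells without Pdcd1 UMIs only, 47 genes were called higher and 17 lower in both libraries, and 43 of the 125 and 7 of the 45 calls remained. All 15 named higher genes and 3 of the 15 lowest in the ranking were still called. Ccr7 and Lef1 then lay above 1, which the removal itself brings about.

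The same levels were read by the number of Pdcd1 UMIs in the cell, as a description. In metformin, Lag3 was at 89.1, 299.7, 243 and 364 CPM in gate cells with 0, 1, 2 to 3 and at least 4 Pdcd1 UMIs. In control it was at 101, 315, 402 and 702 CPM. Tox was at 33.6, 63.6, 45.3 and 39.3 CPM in metformin and at 43.5, 51.7, 80.7 and 166 CPM in control. The libraries were close for Lag3 and Tox at 0 and 1 Pdcd1 UMIs and farthest apart at 4 or more, where Lag3 had intervals of 339 to 391 CPM in metformin and 663 to 743 CPM in control.

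Gzmb was highest and Klf2 lowest at 4 or more Pdcd1 UMIs in both libraries. Gzmb was at 657, 951, 1478 and 3567 CPM over these steps in metformin and at 1014, 1790, 1924 and 3115 CPM in control. Klf2 was at 372, 120.1, 89.0 and 45.4 CPM in metformin and at 334, 95.6, 104 and 42.1 CPM in control. Tnfrsf9 was at 10.1, 15.4, 31.4 and 104 CPM in metformin and at 27.2, 63.3, 63.6 and 208 CPM in control, lower in metformin at each step. Prf1 was at 101, 144, 140.4 and 155 CPM in metformin and at 92.3, 311, 244 and 499 CPM in control. Median depth also grew over the steps, to 13194.5 UMIs in metformin and 10403.5 in control at 4 or more Pdcd1 UMIs, and its part in these courses was not tested.

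**Figure D5:**
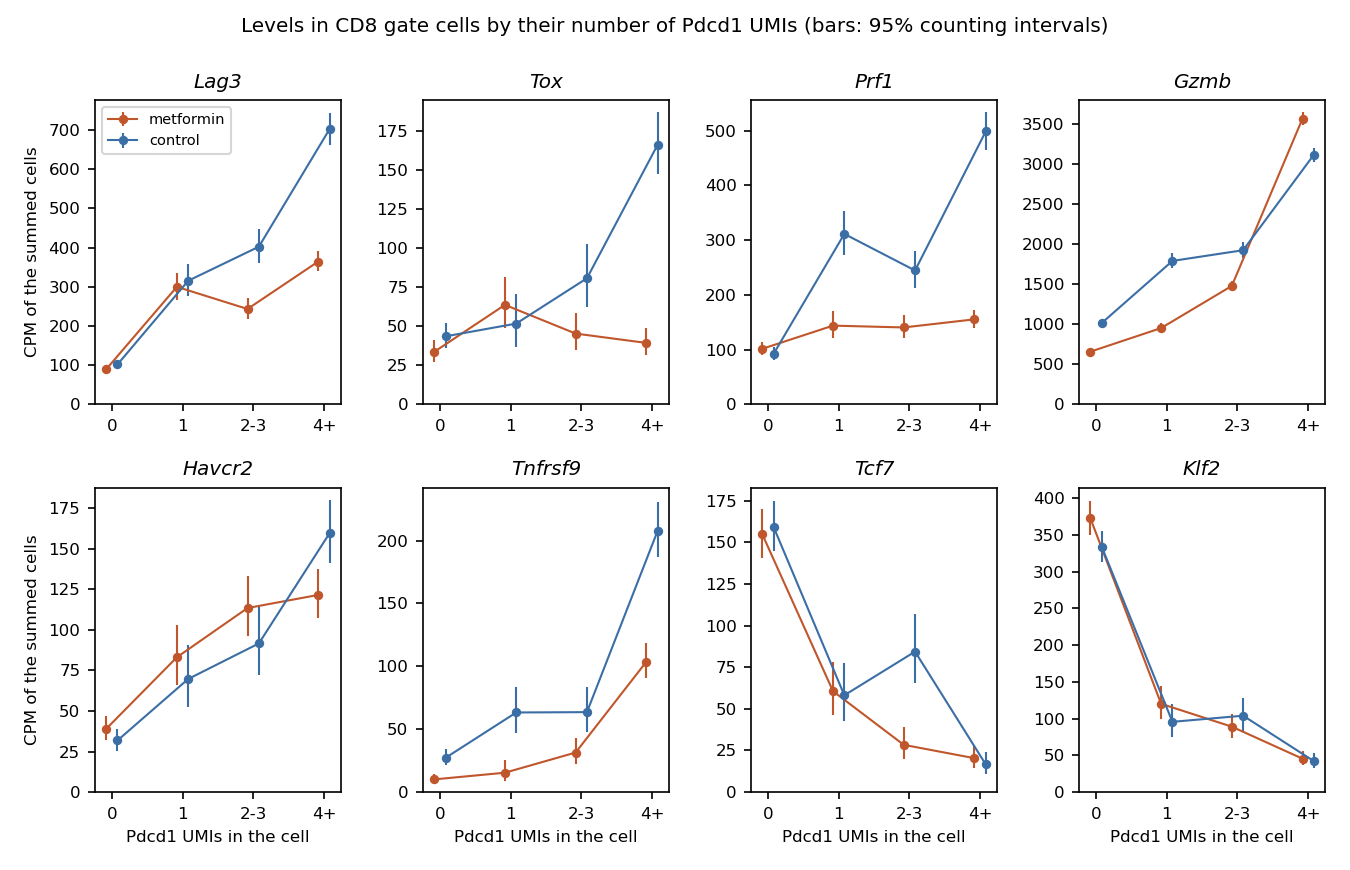
CPM of 8 genes in CD8 gate cells summed by their number of Pdcd1 UMIs (x axis, 0, 1, 2 to 3 and at least 4), metformin in orange and control in blue, with exact Poisson 95% intervals. Lag3 reaches 364 CPM in metformin and 702 CPM in control at 4 or more Pdcd1 UMIs, while Klf2 ends at 45.4 and 42.1 CPM.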

How the data were processed

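The deposited files hold counts of UMIs per gene and cell barcode, 1 matrix a library. The submitters' processing notes name Cell Ranger, Seurat and the build mm10 (GRCm38) without their roles, and the file headers give software 3.0.0. These counts were used as deposited. Barcodes with at least 300 genes and at most 10% mitochondrial UMIs were kept, 4606 of 5473 in metformin and 5435 of 6174 in control. The CD8 T cells with Pdcd1 UMIs held 4391689 UMIs in metformin (1890 to 49864 a cell) and 3277234 in control (1413 to 37026). UMIs were summed over cells and given as CPM with exact Poisson intervals. Ratios have conditional binomial intervals, exact for sums of UMIs and too wide for large shares of cells. Shares have Clopper-Pearson intervals, all at 95%. The 15 genes with the interval bound farthest from 1 were named in each direction, without receptor segments, ribosomal, mitochondrial, haemoglobin, sex-linked and predicted genes and the genes of the rule. A further 12 genes were given whatever their values, and from every list at most 4 others, taken by the same bound. A gene of the ranking is not reported here. The members and the 21 lists were chosen with earlier results of these data known. Doublets were not removed; Scrublet (scanpy 1.11.5, 5% expected) marked 0.803% of metformin and 1.14% of control barcodes and served as an alternative. The size rule was tried on simulated counts drawn from a common profile with known changes. Those counts hold no spread between cells or libraries beyond counting error, so they do not test the rule against such spread. Python 3.11.15, numpy 2.4.6, scipy 1.17.1 and pandas 2.3.3 were used. Alternatives were thinning to 4222 UMIs, equal weight for cells, stricter gates, other minimums and scaling, and sets of cells left out.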

Additional observations from a re-analysis of the deposited data

How the results depend on the processing

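No paired analysis was possible because each group is 1 library and the labels give no replicate numbers. For the same reason no replicate could be left out. The ratio of the share within the CD8 gate was 0.924 after thinning to 4222 UMIs. Between metformin and control, 15 genes were called higher without cells of the cycling gate, and 322 higher and 311 lower with at least 10 UMIs and no CPM minimum, which admits sparse genes. Added after the data were seen, 18 were called lower without Trav3-3 or Trav5-4 cells, 68 higher without Trav5-4, Trav6-7-dv9 or Trbv1 cells, and 49 higher and 76 lower with cells thinned. Thinning kept 23 of the 45 higher and 23 of the 34 lower calls, and 10 of the 15 named higher and 13 of the 15 named lower genes. Between cells with and without Pdcd1 UMIs, 47 were higher and 17 lower when cells with naive-type UMIs left the comparison group, and 29 lower with equal weight for cells. In that comparison thinning kept 73 of the 125 higher and 27 of the 45 lower calls. Leaving out cells of the cycling gate kept 76 and 29.

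Single ratios were checked for the genes named by the ranking or given whatever their values. Of those whose interval left out 1, some crossed 1 between metformin and control. They were Gzmb, 1.02 in cells with at least 2 Pdcd1 UMIs, and, outside the cycling gate, Cks2 (0.990), Nusap1 (0.447) and Tubb4b (0.830). Ccl4, not among the genes checked, also crossed 1 without the V-marked cells, as given above. List medians of at least 0.1 either way crossed 0 outside the cycling gate for checkpoint receptors (0.0027), cytokines (0.040) and costimulation (0.0032), with thinning for checkpoint receptors (0.0050), and without the V-marked cells for the BCL2 family (0.050). Between cells with and without Pdcd1 UMIs, leaving out naive-type cells gave 5.23 in metformin and 2.74 in control for Ccr7, 1.35 and 1.38 for Dapl1, 1.23 and 1.03 for Lef1, 0.879 in metformin for Cxcr6, and 0.948 for Klrk1 and 1.40 for Sidt1 in control. Outside the cycling gate Hist1h2ae was at 0.913 and Pclaf at 0.464 in control. The naive-type filter used Lef1 and Ccr7 themselves, and the cycling gate removed cells by cell cycle genes. Of the other values for named genes, 319 between metformin and control lay within the interval first found and 114 outside it, and between cells with and without Pdcd1 UMIs 213 and 116. Of the other list medians, 199 lay within 0.1 and 27 did not. The cause was not tested. Depth limits the shares of cells with a UMI and genes under 20 UMIs.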
